A study of Felis catus with 2 samples.

Results

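Heat shock proteins and chaperones are the proteins that keep other proteins folded, and the rows studied here are the loci of the deposited table whose single gene name begins with HSPA, HSPB, HSPD, HSPE, HSPH, HSP90, DNAJA, DNAJB, DNAJC or PDIA, or equals CALR, CANX or SERPINH1. The rule uses names, with earlier results of these data known when it was set, and a name on several rows was represented by its row with the higher mean. HSPH1 was the only such name. This gave 68 genes among 32065 loci. Of these, 58 reached 1 FPKM, a level in sequenced fragments that is corrected for transcript length and for the size of the library, in at least 1 of the libraries, among 16676 loci that did so. HSPB7 was the only member that reached it in 1 library alone.

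The libraries were made from polyadenylated RNA of 2 unrelated cats, both 2 months old, of which 1 had primary congenital glaucoma (PCG) and the other was healthy. The dissected tissue held the drainage angle of the eye with its trabecular meshwork, the ciliary body and some neighbouring sclera. The affected cat came from a colony in which PCG is inherited with a frameshift insertion in LTBP2, and the disease state is the only difference that the sample labels name. Each condition has 1 library, so there is no replicate error, no difference could be tested, and every value below describes these 2 animals. In such bulk tissue fewer cells of a type and less RNA per cell cannot be told apart.

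Chaperones of the HSP70 family (HSPA names) bind exposed hydrophobic stretches of unfolded proteins and release them when ATP is exchanged. J proteins (DNAJ names) bring substrates to HSP70 and start ATP hydrolysis, HSP110 proteins exchange its nucleotide, and HSP90 finishes the folding of kinases and hormone receptors. Small heat shock proteins (HSPB names) hold unfolded proteins without ATP, and the lens alpha-crystallins belong to the same family. In the endoplasmic reticulum, HSPA5, HSP90B1, the lectins CALR and CANX and the disulfide isomerases (PDIA names) fold secreted and membrane proteins, among them the matrix proteins of the outflow tissue.

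Pairs of values are given with the normal library first. At 1 kilobase of effective length, 1 FPKM corresponds to 71.0 and 67.4 fragments, and intervals below cover counting error only. Several lists of marker genes differed between the libraries by far larger ratios than most chaperones. All 8 photoreceptor markers and 10 of 11 lens markers past 1 FPKM had the higher value in the affected cat, with summed levels of 409.0 and 1661 FPKM for photoreceptors and of 36715 and 53998 FPKM for lens. All 9 vascular endothelium markers (summed 175.1 and 54.6 FPKM), all 9 cell division genes (99.5 and 13.9 FPKM) and all 9 corneal and conjunctival epithelium markers (572.3 and 21.5 FPKM) were lower. Among immediate early genes, 12 of 14 had the higher value there (summed 125.3 and 898.7 FPKM). The trabecular meshwork markers, which define the labelled tissue, were all detected and went both ways, with MYOC at 149.7 and 301.5 FPKM and MGP at 454.9 and 52.9 FPKM. Smooth muscle markers were higher in 3 of 8 (summed 1294 and 1119 FPKM), ciliary epithelium markers in 6 of 7 (1564 and 4557 FPKM), skeletal muscle markers in 2 of 4 (37.8 and 52.9 FPKM) and macrophage and leukocyte markers in 2 of 6 (34.1 and 38.5 FPKM, with LYZ listed at 0 in both). Some genes in these counts passed 1 FPKM in only 1 library, which fixed their direction in advance. They were KRT14, DSG1, DSG3, PKP1, TP63, MKI67, CCNB2, BUB1, CENPF and ITGAM through the normal library. Through the affected library they were FOSB, EGR2, EGR3, CNGA1, AQP4, CHI3L1 and TNNC2. The part of the marker differences in any member's value was not tested.

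**Figure D1:**
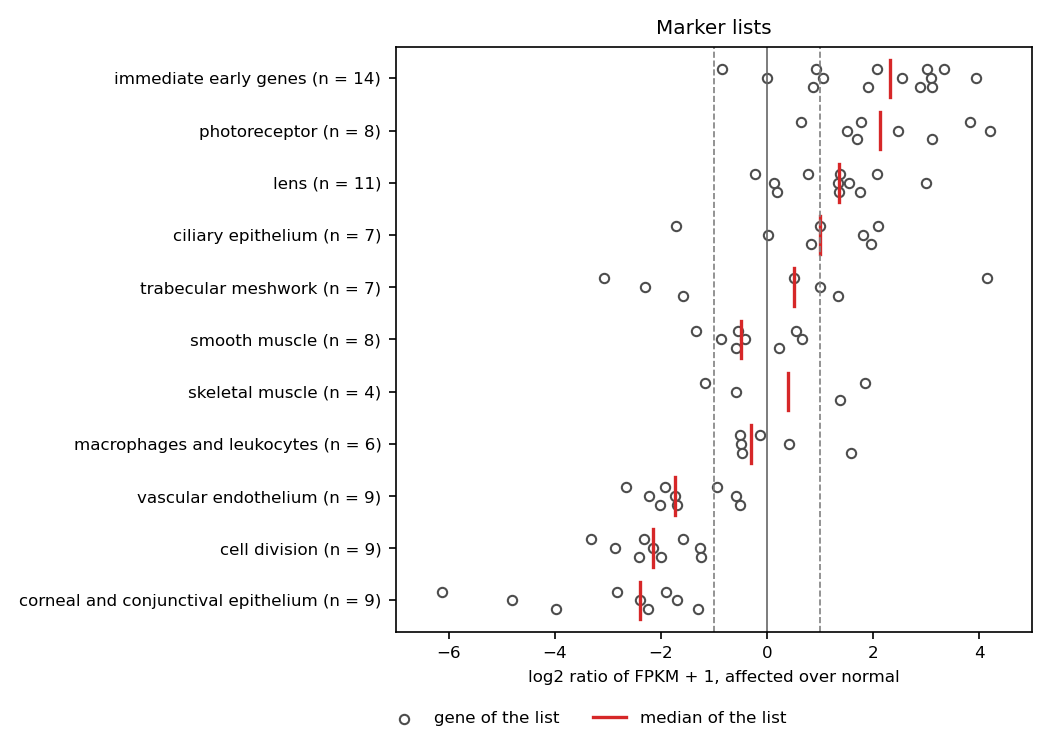
Log2 ratio of FPKM + 1, affected over normal, for the genes of 11 marker lists with at least 1 FPKM in a library (open circles, 1 per gene, spread vertically for legibility). Red bars are list medians, which run from −2.39 for corneal and conjunctival epithelium to 2.32 for immediate early genes, and dashed lines mark 2-fold differences.

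Chaperone transcripts were abundant, and their sum was close to equal in the 2 libraries although single members went opposite ways. The 68 genes summed to 3684 and 3664 FPKM, or 0.568% and 0.545% of all FPKM. The median over the 58 genes past the minimum was 22.3 and 18.9 FPKM, against 8.46 and 8.37 FPKM over all 16676 loci. In each library 43 of the 58 lay above the median of all loci. A few genes held most of the sum, since the 10 highest accounted for 71.0% of it in the normal library and 67.8% in the affected one. In each library 10 members reached 100 FPKM, and 9 of them did so in both.

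The log2 ratio, calculated as log2 of (affected FPKM + 1) over (normal FPKM + 1), had a median of −0.03 over the 58 members and of −0.005 over all loci past the minimum. The quartiles were −0.23 and 0.29 for the members and −0.43 and 0.40 for all loci. Of the 58 members, 1 reached a 2-fold excess in the affected cat on this scale, namely PDIA5, where 8.14% of all loci did. At least 2-fold lower were 4 of 58, namely HSPA2, HSPA12B, SERPINH1 and HSPB2-C11orf52, where 8.75% of all loci were. Neither count is a result about the members, since the shares, 1.72% and 6.90%, lie below those found among all loci past the same minimum. A log2 ratio within 0.5 of 0 was found for 38 of the 58, or 65.5%, against 57.7% of all loci and 63.4% of those averaging 5 FPKM or more. Ratios were above 0 in 28 members and below 0 in 30.

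**Figure D2:**
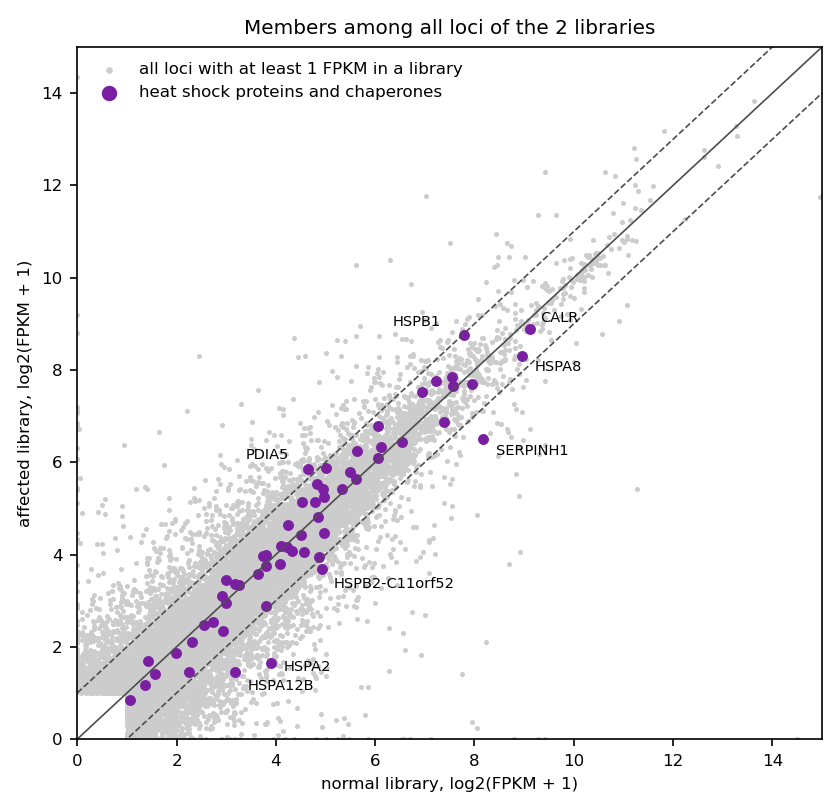
Level of each locus in the normal (x axis) and the affected library (y axis) as log2(FPKM + 1), with the 16676 loci past the minimum in grey and the 58 members in purple. The solid line marks equality and dashed lines 2-fold differences: 53 members lie between the dashed lines, PDIA5 lies above them and HSPA2, HSPA12B, SERPINH1 and HSPB2-C11orf52 below.

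Among the HSP70 proteins of the cytosol, HSPA8, the constitutive form that every cell uses, was listed at 495.6 and 314.7 FPKM, 1.57 times higher in the normal cat. Among the members it ranked 2nd in the normal cat, and 3rd in the other. HSPA2, a form best known from developing sperm, was listed at 13.9 and 2.13 FPKM. This was the lowest ratio of any member, a log2 ratio of −2.25, and 1.22% of all loci had a lower one. HSPA2 is placed by the table on chromosome B3 of the felCat5 build, 112280724 to 112282643, and if its span of 1920 bases is taken as the transcript, the values correspond to 1725 and 251 fragments. The normal value was then 6.53 times the affected value, with an exact 95% interval of 5.71 to 7.48 from counting. HSPA1L was below the minimum, with 0.696 and 0.323 FPKM. The heat-inducible HSPA1A, HSPA1B and HSPA6 are not among the single names of the table and were not analysed here, so the strongest reporters of heat shock are missing from the comparison.

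HSPA12B, a distant relative of HSP70 known from endothelial cells, was listed at 8.06 and 1.75 FPKM, a log2 ratio of −1.72. The normal value was 4.60 times the affected one, with an exact interval of 3.77 to 5.66 from counting if the effective length was 1 kilobase. The 9 endothelial markers, whose summed level is given above, had a median log2 ratio of −1.74 and a range of −2.66 to −0.51, and all 9 were detected in both libraries. HSPA12A, its paralogue, was listed at 3.98 and 3.27 FPKM. Of the HSP110 exchange factors, HSPA4 was listed at 30.3 and 21.2 FPKM and HSPH1 at 13.0 and 6.41 FPKM, with log2 ratios of −0.49 and −0.91, so both were lower in the affected library and neither by 2-fold on the log2 scale used. Without the pseudocount, the normal value of HSPH1 was 2.02 times the affected one. The third, HSPA4L, was listed at 0 in both libraries on an unplaced scaffold, which is not read as absence. The HSPA names as a whole, those of organelles included, had 3 log2 ratios above 0 and 5 below, where 8392 of 16676 loci lay below 0.

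HSP90AA1, the stress-inducible cytosolic form, was listed at 247.3 and 205.9 FPKM, and HSP90AB1, the constitutive form, at 48.2 and 49.0 FPKM. The inducible form thus stood 5.13 times above the constitutive one in the normal library and 4.20 times in the affected one on the per-length scale. HSP90B1, the form of the endoplasmic reticulum, was listed at 187.4 and 199.1 FPKM. Log2 ratios of the 3 genes ran from −0.26 to 0.09, and that of HSP90AB1, 0.02, became −0.03 when both libraries were rescaled to the same sum.

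HSPB1, a protector of actin filaments, had the highest level of the HSPB names. It was listed at 219.5 and 433.0 FPKM, an excess of 1.97 times in the affected cat, with an exact interval of 1.93 to 2.01 from counting at 1 kilobase, and 91.5% of all loci had a lower log2 ratio. In the normal library HSPA8 stood 2.26 times above HSPB1, and in the affected library HSPB1 stood 1.38 times above HSPA8.

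The other HSPB names past the minimum did not share this direction. HSPB6, a small heat shock protein of smooth muscle and heart, was listed at 27.7 and 27.3 FPKM. HSPB8, the partner of the co-chaperone BAG3 in removing damaged filaments, was listed at 18.9 and 16.0 FPKM. HSPB7 of heart muscle, at 1.10 and 0.811 FPKM, passed the minimum only through the normal library, which fixed its direction. HSPB3 was listed at 0 in the normal library and at 0.0494 FPKM in the affected one, which is about 1 fragment over its span of 453 bases. The locus named HSPB2-C11orf52, a readthrough name, was listed at 29.3 and 11.9 FPKM, a log2 ratio of −1.23. It lies on chromosome D1 from 9919925 to 9920985, and only 737 bases separate it from CRYAB, the lens alpha-crystallin that is itself a small heat shock protein. CRYAB was listed at 10017 and 8592 FPKM, a log2 ratio of −0.22, so these neighbours differed in the size of their ratio. HSPB11, an intraflagellar transport protein despite its name, was listed at 22.7 and 15.6 FPKM. The accessory proteins HSPBP1, an exchange factor for HSP70, and HSPBAP1 were listed at 11.4 and 10.9 FPKM and at 2.95 and 2.67 FPKM.

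**Figure D3:**
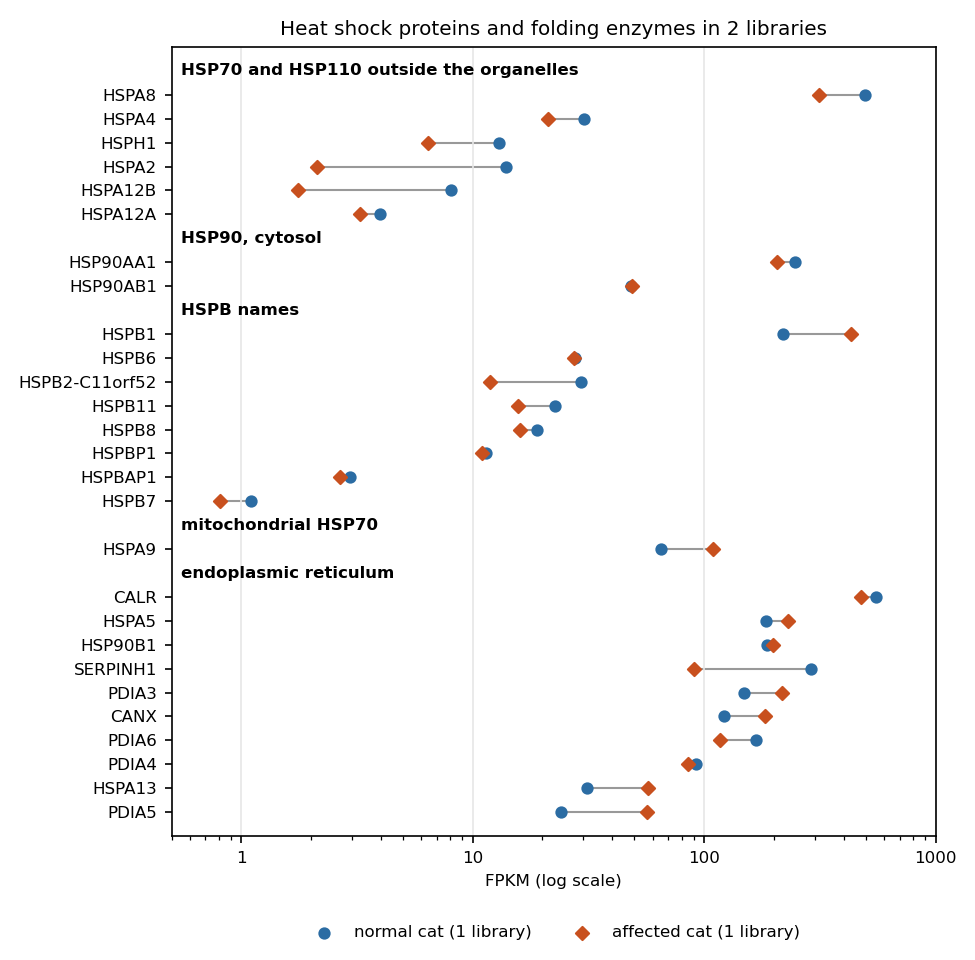
FPKM (log scale) of the 27 members other than J proteins that passed the minimum, in the normal (blue circles) and the affected library (orange diamonds), grouped by place or name. HSPA2 in the first group has the widest gap, at 13.9 and 2.13 FPKM, and the endoplasmic reticulum group holds both PDIA5 at 24.1 and 56.7 FPKM and SERPINH1 at 288.7 and 90.4 FPKM.

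The endoplasmic reticulum holds the most abundant member of all. CALR, calreticulin, a calcium-binding lectin that retains glycoproteins until they are folded, was listed at 554.5 and 476.0 FPKM and ranked 1st in both libraries. Its membrane-bound counterpart CANX was listed at 122.3 and 182.4 FPKM, so that CALR exceeded CANX 4.53-fold in the normal library and 2.61-fold in the affected one. HSPA5, the HSP70 protein of this compartment and the usual gauge of the unfolded protein response, was listed at 185.6 and 229.5 FPKM, 1.24 times higher in the affected library. HSPA13, a further HSP70 relative of the compartment, was listed at 31.1 and 57.5 FPKM, a log2 ratio of 0.86.

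The disulfide isomerases, which form and rearrange the disulfide bonds of secreted proteins, went in different directions. PDIA5 was listed at 24.1 and 56.7 FPKM, a log2 ratio of 1.20 that exceeded 94.4% of all loci, and the affected value was 2.36 times the normal one (exact interval 2.23 to 2.50 from counting at 1 kilobase). It lies on chromosome C2 from 68216929 to 68307796. HSPBAP1 lies 269 kilobases away on the same chromosome. PDIA3, which works with CALR and CANX on glycoproteins, was listed at 148.3 and 216.6 FPKM, PDIA6 at 167.4 and 117.0 FPKM and PDIA4 at 92.5 and 85.4 FPKM. PDIA6 was thus the most abundant of the 4 in the normal library, and PDIA3 was 1.85 times above it in the affected library. PDIA2 stands only on a row that it shares with ARHGDIG.

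SERPINH1, also called HSP47, is a chaperone for procollagen and binds few other proteins. It was listed at 288.7 and 90.4 FPKM, a log2 ratio of −1.66, and moved from 3rd to 11th among the members. The normal value was 3.19 times the affected value (exact interval 3.10 to 3.29 from counting at 1 kilobase), and 2.998% of all loci had a lower log2 ratio. Of the fibrillar collagen chains in the list used, 4 passed the minimum. The 3 with a value above 0 in both libraries were lower in the affected one, and COL1A2 gives no direction. COL1A1 was listed at 2476 and 41.8 FPKM, COL3A1 at 415.4 and 12.9 FPKM and COL5A2 at 134.8 and 19.0 FPKM, while COL1A2 was listed at 0 in the normal library and at 447.2 FPKM in the affected one, a 0 that is not read as absence. COL9A1 and COL9A2, chains of the nonfibrillar collagen IX among the ciliary epithelium markers, were listed at 403.5 and 1718 FPKM and at 355.6 and 1391 FPKM. Of 11 collagen hydroxylases and prolyl isomerases past the minimum, 9 were lower in the affected library, where 8392 of 16676 loci were. At least 2-fold lower were 2, or 18.2%, against 8.75% of all loci, a count too small to be read as a result about the list. The median log2 ratio was −0.50. These 2 were the prolyl hydroxylase subunits P4HA1, at 118.5 and 43.4 FPKM, and P4HA3, at 12.2 and 2.54 FPKM. Their partner subunit P4HB, itself a disulfide isomerase of the general folding machinery, was listed at 200.4 and 201.3 FPKM. The most abundant gene of this list was PPIB, a prolyl isomerase that assists procollagen, at 364.9 and 284.6 FPKM.

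In mitochondria, HSPA9, the HSP70 protein that pulls precursors through the inner membrane, was listed at 65.2 and 108.9 FPKM, a log2 ratio of 0.73. The cytosolic HSPA8 therefore stood 7.60 times above HSPA9 in the normal library and 2.89 times in the affected one. DNAJA3, the J protein of HSPA9, was listed at 16.2 and 17.3 FPKM, DNAJC11 at 12.4 and 14.6 FPKM and DNAJC15 at 21.7 and 20.6 FPKM. DNAJC19, a component of the import motor, was listed at 0 in both libraries on an unplaced scaffold, which is not read as absence. The chaperonin subunits HSPD1 and HSPE1 are not among the single names of the table and were not analysed here. Of 8 mitochondrial folding partners that are not members, such as TRAP1 and LONP1, none differed by 2-fold, with a median log2 ratio of 0.16. The most abundant of them was the protease subunit CLPP, at 53.5 and 35.9 FPKM.

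Of 38 J proteins listed, 31 passed the minimum. On the log2 scale with the pseudocount none reached a 2-fold difference, and 25, or 80.6%, had a log2 ratio within 0.5 of 0. Of the 27 other members past the minimum 13, or 48.1%, had such a ratio, and 18 were below 0. Among these 27, 4, or 14.8%, were at least 2-fold lower and 1, or 3.70%, at least 2-fold higher. Over all loci 57.7% had a ratio within 0.5 of 0, 8392 of 16676 were below 0, 8.75% were 2-fold lower and 8.14% 2-fold higher. The counts are small and are not read as a result about either group. Over the 31 J proteins the median was 0.10 and the range −0.91 to 0.71. Of these J proteins 19 were above 0, or 18 with both libraries rescaled to the same sum. Among the DNAJA proteins, the class closest to the bacterial DnaJ, DNAJA2 was listed at 44.1 and 54.0 FPKM and DNAJA4 at 8.02 and 9.23 FPKM. DNAJB1, the main J protein of the heat shock response, was listed at 39.1 and 41.8 FPKM and DNAJB4 at 13.0 and 14.8 FPKM. DNAJB2, which is enriched in neurons, was listed at 48.8 and 74.5 FPKM. DNAJB5 had the lowest ratio of its class with 3.76 and 1.74 FPKM, so that without the pseudocount the normal value was 2.15 times the affected one.

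The J proteins of the endoplasmic reticulum had log2 ratios within 0.5 of 0 with 1 exception. DNAJB9, a regulator of the stress sensor ERN1, was listed at 29.9 and 42.0 FPKM, DNAJC3, an inhibitor of the kinase EIF2AK3, at 26.8 and 34.1 FPKM and DNAJB12 of its membrane at 17.8 and 23.8 FPKM. DNAJB14 was listed at 8.51 and 9.11 FPKM and DNAJC1 at 17.7 and 17.0 FPKM. DNAJC10, a disulfide reductase that clears misfolded proteins, was the exception with 28.1 and 14.5 FPKM, a log2 ratio of −0.91 and the lowest of any J protein. Over the 16 measured members of both endoplasmic reticulum classes the median was 0.20, with 10 above 0.

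The remaining J proteins serve single tasks. DNAJC5, the cysteine string protein of synaptic vesicles, was listed at 22.0 and 34.1 FPKM, and DNAJC6, which helps uncoat clathrin vesicles in neurons, at 6.95 and 9.96 FPKM, beside the higher photoreceptor sum given above. DNAJC13 of endosomes was listed at 6.99 and 6.73 FPKM. DNAJC7, a co-chaperone of HSP70 and HSP90, had the highest ratio of the class with 27.4 and 45.4 FPKM, a log2 ratio of 0.71. DNAJC8, a splicing-associated protein, was the most abundant DNAJC gene at 68.7 and 80.0 FPKM. DNAJC2 of the ribosome was listed at 15.9 and 12.9 FPKM, DNAJC4 at 30.2 and 36.8 FPKM, DNAJC12, a co-chaperone of aromatic amino acid hydroxylases, at 6.63 and 4.11 FPKM and DNAJC25 at 13.0 and 12.5 FPKM. DNAJC16, DNAJC17, DNAJC18, DNAJC24, DNAJC27 and DNAJC28 lay between 1.26 and 7.53 FPKM, with log2 ratios of −0.19 to 0.26.

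**Figure D4:**
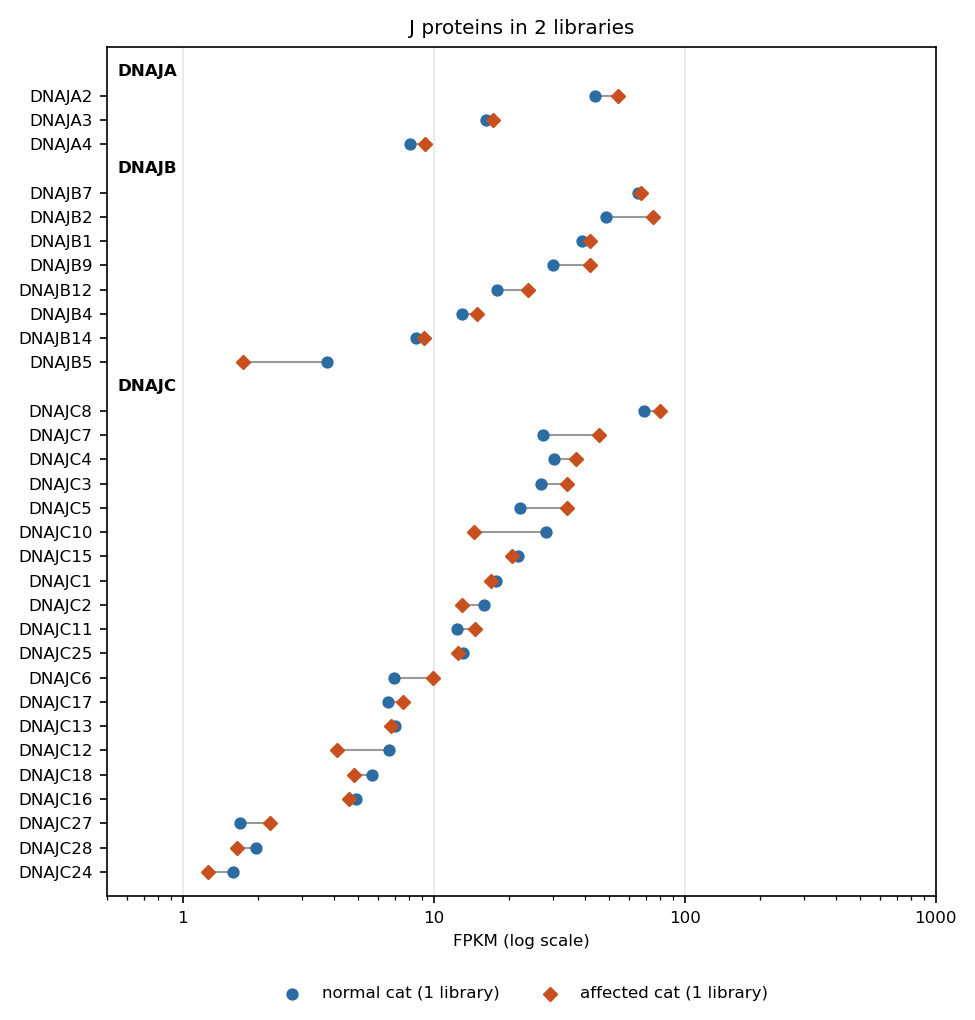
FPKM (log scale) of the 31 J proteins that passed the minimum, in the normal (blue circles) and the affected library (orange diamonds), by class and in order of mean level. Most pairs nearly coincide, and the widest gaps are those of DNAJB5 at 3.76 and 1.74 FPKM and DNAJC10 at 28.1 and 14.5 FPKM.

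A total of 10 members did not reach 1 FPKM. DNAJA1, DNAJB8, DNAJC5B, DNAJC5G, DNAJC19 and HSPA4L were listed at 0 in both libraries, and HSPA1L, HSPB3, DNAJB13 and DNAJC22 lay between 0 and 0.905 FPKM. DNAJB8 and DNAJC5G are known from testis. DNAJA1 is used by most cells, but the row with this name covers 681 bases on chromosome B1 between TECRL and IGFBP7, where the RefSeq gene table of a later cat assembly holds no gene of that name, so its 0 does not describe the gene. The row named DNAJB7, at 65.3 and 67.3 FPKM the DNAJB locus with the highest mean, spans 49035 bases between UBE3C and PTPRN2. The RefSeq table has DNAJB6 between these genes. The value was therefore kept under the name in the table but may belong to DNAJB6. For 63 of the 68 members at least 1 flanking gene in the table was also a neighbour of the same symbol in RefSeq, and 3 symbols, DNAJC25, HSPA1L and HSPB2-C11orf52, are not in that table.

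The wider pathways were compared next through lists of textbook targets and partners. Of the 24 heat shock factor targets listed, 14 were measured, 9 of them members. Their median log2 ratio was −0.25, and 5 of 14 were above 0, where 8284 of 16676 loci were. BAG3, the co-chaperone of HSPB8, was at least 2-fold higher, at 9.08 and 20.2 FPKM, and SERPINH1 was at least 2-fold lower on the log2 scale with the pseudocount. Each is 1 of 14, or 7.14%, against 8.14% of all loci higher and 8.75% lower. The most abundant target was CRYAB. Among the factors themselves, HSF1, the main stress factor, was listed at 30.0 and 32.9 FPKM, HSF4, which acts in the lens, was listed at 22.4 and 55.1 FPKM, beside the higher lens sum given above, and the inhibitor HSBP1, the most abundant, at 104.9 and 141.9 FPKM.

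The 25 measured targets of the unfolded protein response had a median log2 ratio of 0.30, and 19 were above 0. On the log2 scale with the pseudocount 4 of them, or 16%, were at least 2-fold higher and none was 2-fold lower, against 8.14% and 8.75% of all loci, and none of the 4 was a chaperone. The count is small, and TRIB3 passed the minimum only through the affected library, so it is not read as a result about the list. The 4 were PPP1R15A, which restores translation after stress, at 16.3 and 73.3 FPKM, DDIT3, the transcription factor CHOP, at 11.5 and 46.9 FPKM, TRIB3, a pseudokinase that acts downstream of CHOP, at 0.408 and 2.88 FPKM, and HERPUD1, a component of the degradation complex, at 39.6 and 107.3 FPKM. The 10 members of this list had a median of 0.20 and a range of −0.91 to 0.57, and the 15 other genes a median of 0.32 and a range of −0.70 to 2.103. The immediate early list, with its higher sum given above, shares ATF3 with these targets. ATF3 was listed at 1.39 and 3.52 FPKM, 2.53 times higher in the affected cat without the pseudocount and a log2 ratio of 0.92 with it. The most abundant target was CALR. ATF4, the factor upstream of CHOP, was listed at 230.1 and 287.2 FPKM.

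The 7 measured subunits of TRiC, the cytosolic ring that folds actin and tubulin, had log2 ratios of −0.36 to −0.08 and were all lower in the affected library, where 8392 of 16676 loci were, and the most abundant was CCT3 at 125.3 and 113.5 FPKM. The 6 prefoldin subunits, which deliver actin and tubulin to that ring, lay between −0.67 and 0.11, with PFDN5 the most abundant at 200.8 and 207.5 FPKM. The 16 folding partners of the endoplasmic reticulum lay between −0.70 and 0.26 with a median of 0.02, which became −0.03 when both libraries were rescaled to the same sum. Among 15 co-chaperones of HSP70 and HSP90 the median was −0.15, and 2, or 13.3%, were at least 2-fold higher, against 8.14% of all loci, a count too small to be read as a result about the list. These were BAG3 and FKBP5, an HSP90 partner of the glucocorticoid receptor and itself a gene that glucocorticoids induce, at 28.0 and 135.1 FPKM, a log2 ratio of 2.23. The most abundant co-chaperone in the normal library was PTGES3, the p23 protein that binds HSP90, at 109.1 and 98.5 FPKM. In the affected library it was FKBP5.

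**Figure D5:**
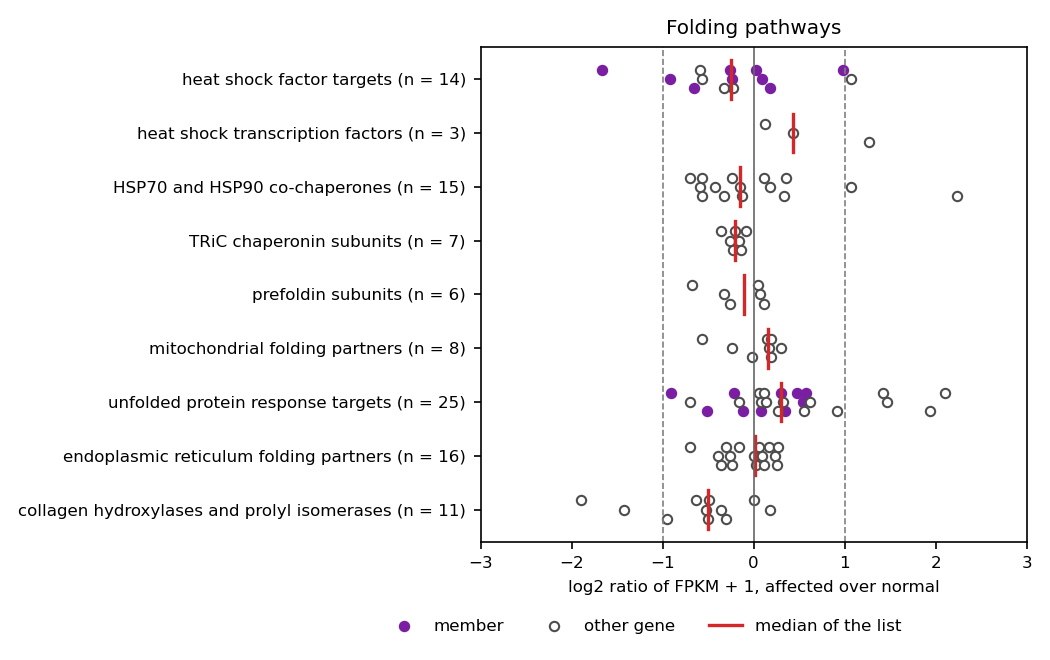
Log2 ratio of FPKM + 1, affected over normal, for genes with at least 1 FPKM in 9 lists of folding pathways (purple, members; open circles, other genes; red bars, list medians; dashed lines, 2-fold differences). Members of the unfolded protein response list end at 0.57 on the right, while 4 other genes of that list lie beyond 1, and the lowest member point is SERPINH1 at −1.66.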

How the data were processed

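Per the submitters' processing notes, TopHat2 2.0.9 and Cufflinks 2.1.1 were run against the cat build felCat5, with Ensembl predictions as a guide according to the study's methods. The authors deposited a single FPKM value for each locus in each library. The kit used does not mark strand, so antisense or overlapping loci cannot be separated, and 15 members share their listed span with other loci. Near-identical copies may divide reads in HSPA8, HSP90AA1, HSP90AB1 and other members, and those values are uncertain. Count models were not used on these values, and no p-value is given because neither condition has a replicate.

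Log2 ratios used a pseudocount of 1, which understates the change of low loci, and a locus had to reach 1 FPKM in either library. Coordinates are given 1-based, since starts in the table begin at 0. The number of fragments behind 1 FPKM was read from steps between low values at unnamed loci, using locus length less 176 bases. Of 1457 such values (normal) and 1211 (affected), 96.9% and 96.4% lay within 0.03 of a whole fragment. Counting intervals (95%, Clopper-Pearson) assume 1 kilobase of effective length unless stated, and the steps were tested on simulated data. Python 3.11.15, numpy 2.4.6, pandas 2.3.3, scipy 1.17.1 and matplotlib 3.10.9 were used.

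The members and lists were chosen with earlier results of these data known. The text names members at least 2-fold different, the 10 most abundant, extremes of each class, members at 0, and, of the pathway lists, genes at least 2-fold different and the most abundant one; further members and list genes are given for completeness. No sequence is shown because none was used here. Names joined on 1 row were not matched to single genes.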

Additional observations from a re-analysis of the deposited data

How the results depend on the processing

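PDIA5 was the only member at least 2-fold higher, and 4 members were at least 2-fold lower, under each rescaling, without a filter and with rows of a name summed. For the lower ones this was 4 of 68 without a filter, against 4.55% of all loci, 4 of 60 with a common sum, against 10.6%, and 4 of 58 with equal medians, against 8.63%. For the higher one it was 1 of 68, 1 of 60 and 1 of 58 in these settings, against 4.24%, 8.54% and 8.23% of all loci. Adding the rows that join a member name gave 5 of 62 lower (8.75% of all loci), since the row of ARHGDIG and PDIA2 then enters. With a 4-fold threshold the counts were 0 higher and 1 lower (HSPA2), where 1.68% and 1.79% of all loci were. A pseudocount of 0.1 added DNAJB5 and HSPH1, for 6 lower (13.0% of all loci), and a minimum mean of 5 FPKM left 3, without HSPA12B (6.46% of all loci). The median log2 ratio of the members was 0.087 when only loci averaging 5 FPKM or more were kept, which drops the low members, and between −0.10 and 0 otherwise. Without the 10 loci of highest mean the members held 0.685% (normal) and 0.624% (affected) of the FPKM, as the sum is then smaller. The median of the cytosolic HSP70 class rested on few genes and changed from −1.45 to −0.71 when rescaling let HSPA1L pass the minimum, and to −1.65 with a pseudocount of 0.1. HSPA2 and HSPA12B had log2 ratios of −2.65 and −2.14 with that pseudocount. Rescaling both libraries to a sum of 1000000 lowered ratios by 0.18 at most and turned those of HSP90AB1 and the locus named DNAJB7 to −0.03 and −0.009. No paired analysis was possible because either side of the comparison is a single library. Each value rests on 1 cat per condition, and counting intervals do not cover differences between cats.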

Other observations

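Some chaperone names stand only on rows that join several genes, and such rows cannot be divided. Pairs of values are given with the normal library first. PDIA2, a disulfide isomerase of the pancreas, shares a row with ARHGDIG that was listed at 7.14 and 2.55 FPKM. DNAJC9, a histone-binding J protein, shares a row with the mitochondrial ribosomal gene MRPS16 at 17.5 and 10.3 FPKM. HSPA14 shares a row with an unnamed Ensembl gene at 22.3 and 27.0 FPKM, and DNAJC21, a J protein of ribosome assembly, shares one with its fellow ribosome factor BRIX1 at 8.20 and 11.4 FPKM.

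HSPH1 stands on a second row with the same listed span, at 0.233 and 0.775 FPKM. This is opposite in direction to the row used above, at 13.0 and 6.41 FPKM, and the sum of both rows was still lower in the affected library. The span of CALR on chromosome A2 is shared with 6 other rows, whose values lay between 0.198 and 43.2 FPKM, far below the 554.5 and 476.0 FPKM listed for CALR.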
